A study of Mus musculus with 3 samples.

Results

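Foxp3 and 4 receptors of the tumour necrosis factor (TNF) receptor superfamily that regulatory T cells carry, Tnfrsf18 (GITR), Tnfrsf4 (OX40), Tnfrsf9 (4-1BB) and Tnfrsf1b (TNFR2), were described in single follicular T cells. The 5 genes were chosen by name out of 32285 features, and each had UMIs in all 3 samples. Follicular helper T cells (Tfh) help B cells in germinal centres, and follicular regulatory T cells (Tfr) express Foxp3 and restrain them. Cells had been sorted from the spleens of mice whose B cells lack Siglec-G, an inhibitory receptor that binds sialic acid (BKO, 1 sample), and of wild-type mice (WT, 2 samples), all 14 days after immunisation with liposomes carrying ovalbumin (OVA). The labels name the spleen, while the protocol also names lymph nodes. By the genotype label the deletion is in B cells, not in the T cells measured. The sources used here do not give the mouse strain, the age, the Cre line behind the knockout or how many mice were pooled. RNA was counted by unique molecular identifiers (UMIs), which mark single captured molecules, with the 10x 3′ assay.

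Foxp3 is the transcription factor that sets regulatory T cell identity. GITR, OX40, 4-1BB and TNFR2 are membrane receptors without enzyme activity of their own: when their ligands (Tnfsf18, Tnfsf4, Tnfsf9 and, for TNFR2, TNF or lymphotoxin) bind, they recruit TRAF adaptors, which pass the signal to NF-kappaB. They act as costimulatory receptors of T cells, rise after antigen receptor stimulation, and are carried at high level by regulatory T cells.

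The authors' tables placed 2044 BKO cells in Tfr and 6389 in Tfh, against 1416 and 3727 cells in WT run 1 and 1449 and 3668 cells in WT run 2. All 5554 barcodes of WT run 1 were among the 5721 of WT run 2, with a Pearson r of 0.997 between their UMI totals, so the WT samples were treated as 2 sequencing runs of 1 library. Of the annotated BKO cells, 11 had a barcode that also occurs in WT run 1 and 13 one that occurs in WT run 2. With 1 library per genotype no test between genotypes was possible and no p-value is given. Intervals are 95% exact Poisson intervals for levels and 95% Clopper-Pearson intervals for shares. They cover counting error only, not the spread between mice. Median depth was 7054.5 UMIs per Tfr cell and 6243 per Tfh cell in BKO, against 5146 and 4413 in WT run 1 and 8407 and 7293.5 in WT run 2. The labels put BKO and WT run 1 in batch 1 and WT run 2 in batch 2. Levels are given in CPM, the UMIs of a gene in the summed cells scaled to a common total of all their UMIs.

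The 3 samples had T cell RNA, with summed levels of 5 T cell markers of 5262 CPM in BKO Tfr against 4150 and 4090 CPM in WT Tfr, and of 4987 CPM in BKO Tfh against 4264 and 4245 CPM in WT Tfh. The 8 regulatory T cell markers, which include Foxp3, summed to 4229 CPM in BKO Tfr, 4167 CPM in WT run 1 Tfr and 4208 CPM in WT run 2 Tfr. In Tfh they summed to 1597 CPM in BKO, 1817 CPM in WT run 1 and 1835 CPM in WT run 2. The 5 CD8 T and NK cell markers summed to 48.2 CPM in BKO Tfh against 273 and 252 CPM in WT Tfh, and to 57.4 CPM in BKO Tfr against 105 and 81.3 CPM in WT Tfr. Most of the gap in Tfh was Nkg7, a gene of cytotoxic granules, at 27.6 CPM in BKO against 249 and 230 CPM in WT, while Klrb1c stood at 14.6 CPM in BKO against 15.0 and 13.9 CPM. Cd8a and Ncr1 were at or near 0 in each sample and class. The part of Nkg7-expressing cells in the results below was not tested.

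The receptor genes all lie on mouse chromosome 4 and Foxp3 on chromosome X. By GENCODE gene models on GRCm38, Foxp3 spans chrX:7573644-7595245 on the plus strand, and its span overlaps Flicr on the same strand and Ppp1r3f and Ccdc22 on the other. Tnfrsf4 (chr4:156013843-156016612, plus strand) and Tnfrsf18 (chr4:156026164-156028895, plus strand) are neighbours 9551 bases apart with no other feature of the matrices between them. Tnfrsf9 spans chr4:150914562-150946102 on the plus strand and overlaps Camta1 on the other strand. Tnfrsf1b spans chr4:145213463-145246870 on the minus strand. Tnfrsf18 overlaps Gm16008 on the other strand. The sources used here do not say whether counting used strand, so reads in the overlaps may be shared. Introns make up 17025 bases of the Foxp3 span, 1208 of Tnfrsf18, 1405 of Tnfrsf4, 28819 of Tnfrsf9 and 29590 of Tnfrsf1b, which matters below because the BKO and WT counts were made with different versions of the counting software.

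All 5 members matched RefSeq starts on GRCm38.p6, with 2 starts each for Foxp3 and Tnfrsf9 and 7 windows in all. The 250 bases before the start are shown for the neighbours Tnfrsf4 (chr4:156013445-156013694) and Tnfrsf18 (chr4:156026072-156026321), which had similar patterns, and for the Tnfrsf9 start whose window held the most motif matches (chr4:150927749-150927998). All are on the plus strand, 5′ to 3′, and capitals mark motif matches.
Tnfrsf4: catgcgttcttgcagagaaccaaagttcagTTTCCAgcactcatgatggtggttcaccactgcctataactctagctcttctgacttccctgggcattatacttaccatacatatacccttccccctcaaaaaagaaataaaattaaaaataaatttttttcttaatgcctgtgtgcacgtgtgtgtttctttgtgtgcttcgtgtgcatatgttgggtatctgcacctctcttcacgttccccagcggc
Tnfrsf18: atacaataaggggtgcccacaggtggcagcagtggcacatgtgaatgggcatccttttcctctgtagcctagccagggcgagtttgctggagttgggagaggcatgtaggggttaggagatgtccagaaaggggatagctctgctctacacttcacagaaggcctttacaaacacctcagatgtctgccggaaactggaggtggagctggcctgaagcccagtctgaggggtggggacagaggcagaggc
Tnfrsf9: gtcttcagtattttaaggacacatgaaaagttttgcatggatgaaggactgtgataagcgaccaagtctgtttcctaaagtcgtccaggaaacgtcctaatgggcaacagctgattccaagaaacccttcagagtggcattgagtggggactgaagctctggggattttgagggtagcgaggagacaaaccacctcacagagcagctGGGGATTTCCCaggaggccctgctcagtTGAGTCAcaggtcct
4 motifs were searched on both strands: the NF-kappaB consensus, forkhead (GTAAACA), AP-1 (TGANTCA) and NFAT (TGGAAA). The Tnfrsf9 window shown held overlapping matches to the NF-kappaB consensus, which 7.25% of 32851 such windows of all genes held, and a match to AP-1, which 6.75% held. The NFAT motif, found in 18.6% of windows, was in the Tnfrsf4 window, in the other Tnfrsf9 window (chr4:150919905-150920154) and in 1 of the Foxp3 windows (chrX:7580233-7580482). Forkhead, found in 3.17% of windows, was in none of the 7. Tnfrsf18 and Tnfrsf1b had no match. A match describes letters and does not show that a factor binds there.

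Foxp3 separated the classes almost completely, and the annotation followed it. Each of the 2044 Tfr cells of BKO, 1416 of WT run 1 and 1449 of WT run 2 had at least 1 Foxp3 UMI, so the level of Foxp3 across classes describes how cells were classed. In Tfr it stood at 349 CPM in BKO (interval 340 to 358), against 356 CPM in WT run 1 (interval 343 to 369) and, in WT run 2, 331 CPM (interval 321 to 341). In Tfh it stood at 1.33 CPM in BKO, against 0.801 CPM in WT run 1 and 16.5 CPM in WT run 2. The Tfr levels of BKO and WT run 1 overlapped, and WT run 2 Tfh stood apart from both other Tfh samples.

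**Figure D1:**
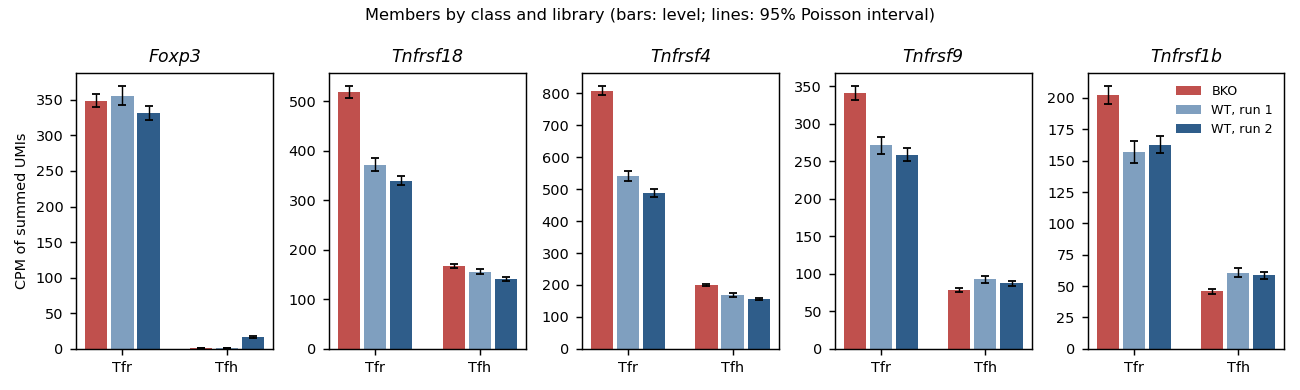
Bars give CPM of UMIs summed over the Tfr cells (left) and Tfh cells (right) of BKO, WT run 1 and WT run 2, with 95% Poisson intervals. All 4 receptors are higher in Tfr than in Tfh in each sample, Foxp3 in Tfr is at 349, 356 and 331 CPM, and only WT run 2 Tfh shows Foxp3 above 10 CPM, at 16.5 CPM.

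All 4 receptors were higher in Tfr than in Tfh in BKO and in both WT runs. Tnfrsf4 stood at 808 CPM in BKO Tfr against 200 CPM in BKO Tfh, a ratio of 4.04. Its level in WT run 1 was 542 CPM in Tfr against 170 CPM in Tfh (ratio 3.19). The WT run 2 level was 488 CPM in Tfr against 156 CPM in Tfh (ratio 3.13). Tnfrsf18 stood at 518 CPM in BKO Tfr against 168 CPM in BKO Tfh (ratio 3.08), with WT ratios of 2.38 in run 1 and 2.40 in run 2.
Tnfrsf9 stood at 341 CPM in BKO Tfr against 78.1 CPM in BKO Tfh (ratio 4.34), with WT ratios of 2.92 and 2.96. Tnfrsf1b stood at 202 CPM in BKO Tfr against 45.9 CPM in BKO Tfh (ratio 4.37), with WT ratios of 2.58 and 2.77. A feature was counted as higher when its mean over the classes was at least 20 CPM and Tfr was at least 1.5 times Tfh after adding 0.5 CPM. All 4 receptors passed in each sample, where 4.57% of 6393 features passed in BKO, 2.77% of 6608 in WT run 1 and 2.99% of 6599 in WT run 2. Ranked by ratio, the receptors took places 17 to 34 in BKO, 10 to 34 in WT run 1 and 15 to 35 in WT run 2, and Foxp3, which set the classes, was first. The classes were made on the same cells, so these ranks are a description. Fewer cells of a kind within a class and less RNA per cell cannot be told apart in such sums.

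The shares of cells gave the same order after each cell was thinned to 2500 UMIs. Tnfrsf4 then had a UMI in 65.8% of BKO Tfr cells and 26.0% of BKO Tfh cells, where all UMIs gave 86.6% and 44.2%. In WT run 1 the thinned shares were 57.0% in Tfr and 25.9% in Tfh, and in WT run 2 they were 54.6% and 23.8%. Thinning left out 9 Tfr and 66 Tfh cells of BKO, 36 and 194 of WT run 1 and 2 and 56 of WT run 2. Cells also carried the receptors together. A thinned Tfr cell had UMIs of 2.06 of the 4 receptors on average in BKO, against 1.79 in WT run 1 and 1.73 in WT run 2, and 11.6%, 8.70% and 7.95% of Tfr cells had all 4. A thinned Tfh cell had 0.767 in BKO, 0.806 in WT run 1 and 0.751 in WT run 2, and 1.15%, 0.962% and 1.08% had all 4.

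Free RNA held these genes too. BKO barcodes of 1 to 50 UMIs, which hold few or no cells, had 112 CPM of Foxp3, 314 of Tnfrsf18, 459 of Tnfrsf4, 157 of Tnfrsf9 and 80.0 of Tnfrsf1b, against 91.4, 258, 357, 146 and 86.3 CPM in annotated BKO cells. Foxp3 in BKO Tfh, at 1.33 CPM, lay far under that free level. The classes followed Foxp3 UMIs, however, so this low level comes from the classing and does not measure free RNA in cells. The WT matrices hold called cells only, so free RNA was not measured there. The part of free RNA in the shares of cells with a UMI was not tested.

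Within Tfr, cells with more Foxp3 UMIs had higher receptor levels. Tnfrsf4 stood at 617, 855 and 930 CPM in BKO Tfr cells with 1, 2 and 3 or more Foxp3 UMIs, at 420, 577 and 683 CPM in WT run 1, and at 354, 467 and 561 CPM in WT run 2. Tnfrsf1b followed the same order, with 150, 197 and 245 CPM in BKO, 137, 166 and 178 CPM in WT run 1, and 126, 152 and 185 CPM in WT run 2. The cells of these groups also differed in depth, with medians of 6533, 7058 and 7695 UMIs in BKO, and the part of depth was not tested. Exactly 1 Foxp3 UMI was all that 36.9% of BKO Tfr cells had, against 47.8% in WT run 1 and 28.1% in WT run 2.

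The Tfr class holds subclusters numbered by the authors' clustering, and receptor levels differed among them. These numbers come from clustering the same cells, so differences among them are descriptions. Of the 5 Tfr subclusters with at least 100 cells in each sample, subcluster 1 had the highest level of all 4 receptors in BKO and in both WT runs. Tnfrsf4 there stood at 1206 CPM in BKO, 897 CPM in WT run 1 and 805 CPM in WT run 2. Tfr subcluster 0 had the lowest level of Tnfrsf18, Tnfrsf4 and Tnfrsf9 in each sample, with Tnfrsf4 at 265 CPM in BKO, 265 CPM in WT run 1 and 237 CPM in WT run 2. For Tnfrsf1b subcluster 2 was lowest, at 88.3 CPM in BKO, 96.7 CPM in WT run 1 and 97.0 CPM in WT run 2. In the WT runs the next in order was subcluster 3, and its intervals overlapped those of subcluster 1 for Tnfrsf4 and Tnfrsf9. In BKO the next was subcluster 4, and its intervals did not overlap those of subcluster 1 for any of the 4 receptors. The highest Tfr subcluster was 4.55 times the lowest for Tnfrsf4 in BKO, 3.39 times in WT run 1 and 3.40 times in WT run 2. For Foxp3 the same ratio was 1.53 in BKO, 1.10 in WT run 1 and 1.24 in WT run 2, but each Tfr cell held a Foxp3 UMI, a floor that narrows this range and that the receptors do not have. All neighbours in the Foxp3 order had overlapping intervals in both WT runs.

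**Figure D2:**
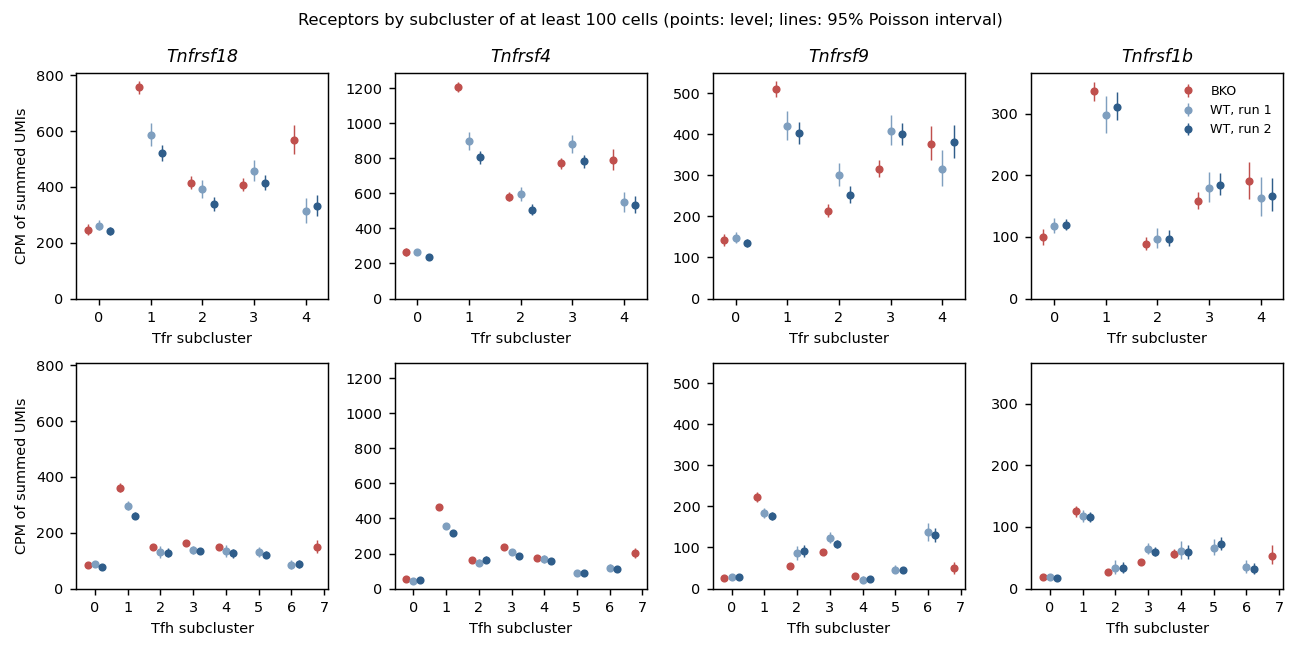
Points give CPM of UMIs summed over the cells of each Tfr subcluster (top) and Tfh subcluster (bottom) of at least 100 cells, for BKO, WT run 1 and WT run 2, with 95% Poisson intervals. Subcluster 1 is the highest of its class for each receptor in each sample, with Tnfrsf4 in Tfr subcluster 1 at 1206, 897 and 805 CPM and in Tfh subcluster 1 at 466, 355 and 319 CPM.

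Among Tfh cells, subcluster 1 had the highest level of all 4 receptors in each sample. Its Tnfrsf4 level was 466 CPM in BKO, 355 CPM in WT run 1 and 319 CPM in WT run 2, against 157, 113 and 107 CPM in the other Tfh cells. Tnfrsf18 stood at 361, 296 and 261 CPM there against 137, 112 and 105 CPM in the other Tfh cells. Tnfrsf9 stood at 223, 183 and 177 CPM against 55.0, 64.7 and 60.2 CPM, and Tnfrsf1b at 125, 117 and 116 CPM against 33.2, 43.1 and 41.3 CPM. These levels were 57.7% to 69.7% of the BKO Tfr level, 65.5% to 79.8% of that in WT run 1 and 65.4% to 76.8% of that in WT run 2. They lay above the level of Tfr subcluster 0 for Tnfrsf18, Tnfrsf4 and Tnfrsf9 in each sample, by 1.08 to 1.76 times. For Tnfrsf1b the ratio to Tfr subcluster 0 was 1.26 in BKO, 0.997 in WT run 1 and 0.967 in WT run 2. The lowest Tfh subcluster for Tnfrsf4 and Tnfrsf1b was subcluster 0, with Tnfrsf4 at 52.8 CPM in BKO, 43.2 CPM in WT run 1 and 46.1 CPM in WT run 2.

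Thinning kept this order. Tnfrsf4 had a UMI in 51.5% of thinned Tfh subcluster 1 cells in BKO, 48.0% in WT run 1 and 44.6% in WT run 2. A thinned cell of Tfh subcluster 1 had UMIs of 1.55 receptors on average in BKO, 1.45 in WT run 1 and 1.38 in WT run 2, against 0.639, 0.597 and 0.555 in the other Tfh cells. Subcluster 1 made up 14.4% of BKO Tfh cells (interval 13.5 to 15.2), against 24.9% in WT run 1 (23.5 to 26.3) and 23.6% in WT run 2 (22.3 to 25.0). Foxp3 stood at 2.49 CPM there in BKO, 1.59 CPM in WT run 1 and 46.1 CPM in WT run 2.

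The cells annotated in both WT runs allowed their classes and Foxp3 UMIs to be compared between runs. Of 5068 cells annotated in both runs, 527 (10.4%) were classed differently: 233 were Tfr in run 1 and Tfh in run 2, and 294 were Tfh in run 1 and Tfr in run 2. Among the 233 cells, each with a Foxp3 UMI in run 1, 73.8% (interval 67.7 to 79.3) also had one in the run 2 counts although run 2 classed them as Tfh. Among the 3387 cells classed as Tfh in both runs, 5.61% had a Foxp3 UMI in run 2 and 0.177% in run 1. The UMI totals in the authors' tables were lower than those of the WT run 2 counts by a median factor of 1.52 in Tfh, against 1 in BKO and WT run 1, so the annotation of run 2 used fewer UMIs than the deposited counts hold. Of the 294 cells that run 2 alone classed as Tfr, 2 had a Foxp3 UMI in run 1 (0.680%, interval 0.0825 to 2.44). Run 1 classes followed Foxp3 UMIs, so this share and the 0.177% follow from the choice of cells. They do not measure how often Foxp3 was missed. Thinned to 2500 UMIs in run 2, Foxp3 had a UMI in 62.5% of cells classed as Tfr in both runs, 32.6% of those that were Tfr in run 1 alone, 38.9% of those that were Tfr in run 2 alone and 2.02% of those classed as Tfh in both.

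Most cells with a Foxp3 UMI in run 1 also had one in run 2, the deeper run, while the reverse held less often. Of the cells with a Foxp3 UMI in run 2, 1334 had one in run 1 and 476 did not. Both runs were treated as runs of 1 library, so these shares do not measure how well capture repeats. Of 1395 cells with a Foxp3 UMI in run 1, 95.6% had one in run 2, and of 3673 cells without one in run 1, 13.0% had one in run 2. With exactly 1 UMI in run 1 the share was 91.4%, and with 2 or more it was 99.6%. Cells without a receptor UMI in run 1 had one in run 2 at 28.4% for Tnfrsf18, 21.4% for Tnfrsf4, 13.0% for Tnfrsf9 and 15.7% for Tnfrsf1b. A UMI of Foxp3 in either run was found in 36.9% of the 5068 cells.

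Most of the cells that changed from Tfh to Tfr came from Tfh subcluster 1. Of 917 cells of Tfh subcluster 1 in run 1, 22.9% (interval 20.2 to 25.8) were Tfr in run 2, against 3.04% (2.43 to 3.75) of 2764 other Tfh cells. In the other direction, 18.1% of 861 Tfh subcluster 1 cells of run 2 were Tfr in run 1, against 2.79% of 2759 other Tfh cells. Subcluster 1 held 71.4% of the 294 cells and 67.0% of the 233. Among cells in Tfh subcluster 1 in both runs, 13.3% had a Foxp3 UMI in the run 2 counts, against 3.63% of cells in other Tfh subclusters in both runs.

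In the run that called them Tfh, the cells classed differently had Tnfrsf4 levels between those of Tfr and of Tfh subcluster 1. In run 1 the 294 cells then called Tfh had 386 CPM of Tnfrsf4 (interval 356 to 419) with 1.34 CPM of Foxp3, beside 581 CPM of Tnfrsf4 in cells classed as Tfr in both runs, 329 CPM in Tfh subcluster 1 in both runs and 107 CPM in the other Tfh. In run 2 the 233 cells then called Tfh had 364 CPM (339 to 391), beside 515, 297 and 102 CPM. Both groups were at over 3 times the level of the other Tfh. Tnfrsf9 followed the same order in run 1, with 213 CPM in the 294 cells, 283 CPM in Tfr of both runs, 167 CPM in Tfh subcluster 1 and 60.7 CPM in the other Tfh. For Tnfrsf18 and Tnfrsf1b in run 1 the intervals of the 294 cells overlapped those of Tfh subcluster 1, with 289 and 282 CPM of Tnfrsf18 and 115 and 113 CPM of Tnfrsf1b. Other genes of regulatory T cells were measured in the same cells. Il2ra, the high-affinity interleukin 2 receptor chain, stood at 87.9 CPM in the 294 cells in run 1, 102 CPM in Tfr of both runs, 46.8 CPM in Tfh subcluster 1 and 6.60 CPM in the other Tfh. Ikzf2 (Helios) stood at 2846, 3266, 3492 and 982 CPM in these 4 groups, and Ctla4, an inhibitory receptor, at 293, 371, 280 and 101 CPM. In the same order, Ikzf4 stood at 69.8, 105, 102 and 10.9 CPM and Lrrc32 at 38.9, 47.4, 26.1 and 4.05 CPM. Itgae stood at 11.4, 24.9, 13.3 and 2.17 CPM and Gpr83 at 20.8, 19.9, 26.7 and 4.80 CPM. So Ikzf2, Ikzf4, Itgae and Gpr83 were lower in the 294 cells than in Tfh subcluster 1, with overlapping intervals for Itgae and Gpr83. Cxcr5, the chemokine receptor that guides cells into follicles, stood at 141, 115, 164 and 215 CPM. Sostdc1, also a gene of Tfh cells, had another order, at 63.7, 33.9, 45.0 and 302 CPM. Other Tfh markers split between Tfh subcluster 1 and the other Tfh in run 1. Bcl6 (201 against 162 CPM), Pdcd1 (264 against 235), Icos (355 against 235), Tox2 (365 against 324) and Sh2d1a (569 against 514) were higher in subcluster 1. Il21 (14.6 against 55.9 CPM), Il4 (38.2 against 112) and Cd40lg (81.0 against 227) were lower there. Ascl2 was at 19.2 against 18.7 CPM.

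**Figure D3:**
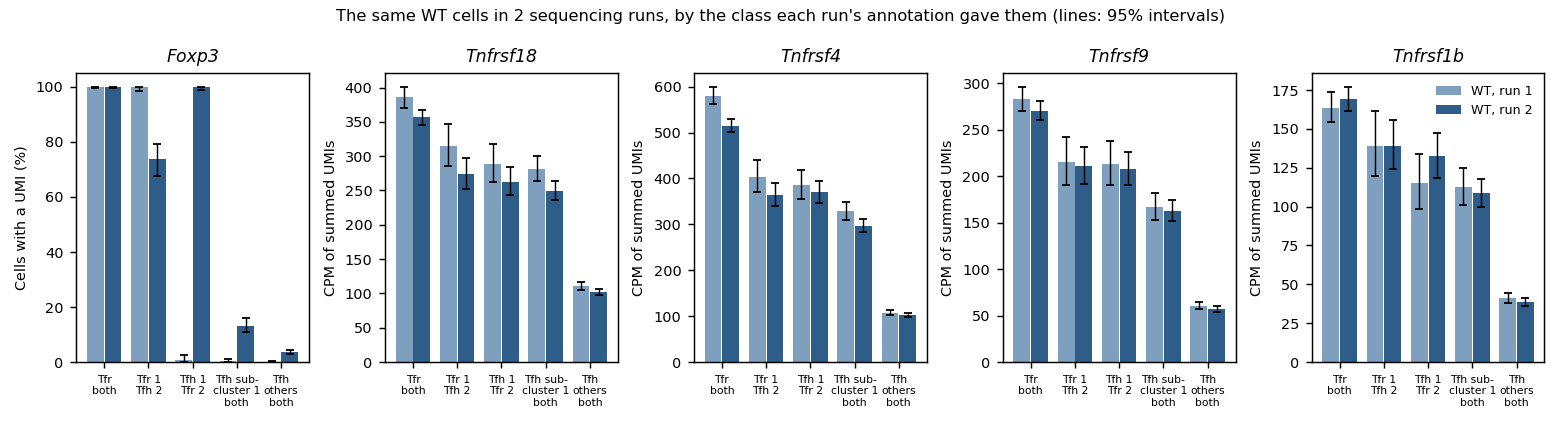
The left panel gives the share of cells with a Foxp3 UMI and the other panels CPM of each receptor, for WT cells present in both runs and grouped by the class each run gave them, with 95% intervals. Cells classed differently have Tnfrsf4 at 364 to 403 CPM in either run, between the cells classed as Tfr in both (581 and 515 CPM) and Tfh outside subcluster 1 (107 and 102 CPM).

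The share of cells with a Foxp3 UMI depended on depth in each group. In WT cells with at least 8000 UMIs in run 2, grouped by their class in run 1, thinning to 1000 UMIs left a Foxp3 UMI in 26.4% of 759 Tfr cells, 4.08% of 343 Tfh subcluster 1 cells and 0.878% of 1139 other Tfh cells. At 4000 UMIs the shares were 68.4%, 20.1% and 2.37%, and at 8000 UMIs 89.2%, 31.8% and 5.62%. At 8000 UMIs the intervals of the 3 groups did not overlap (86.8 to 91.3, 26.9 to 37.0 and 4.35 to 7.12). The classes of run 1 followed Foxp3 UMIs in the same cells, so the gap between Tfr and Tfh follows largely from the grouping.

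**Figure D4:**
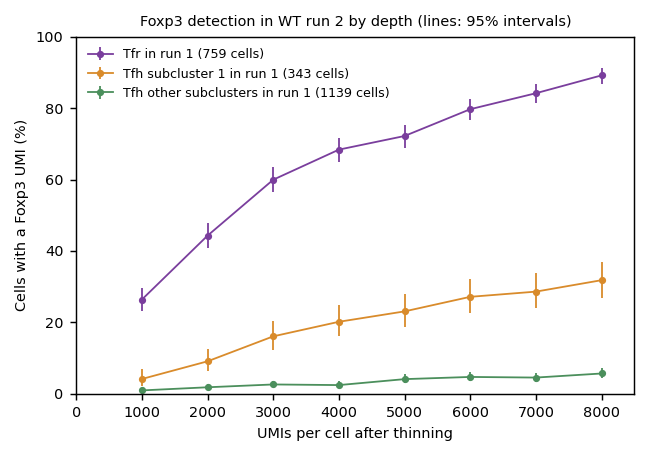
The share of cells with a Foxp3 UMI (vertical axis, with 95% Clopper-Pearson intervals) is plotted against UMIs per cell after thinning, in WT run 2 cells grouped by class in run 1. The share climbs from 26.4% to 89.2% in Tfr, from 4.08% to 31.8% in Tfh subcluster 1 and from 0.878% to 5.62% in other Tfh cells between 1000 and 8000 UMIs. Classes of run 1 followed Foxp3 UMIs in the same cells, so the gap between Tfr and Tfh follows largely from the grouping.

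Among Tfh cells, 58 of 6389 in BKO (0.908%) had a Foxp3 UMI in the deposited counts, against 15 of 3727 in WT run 1 (0.402%) and 365 of 3668 in WT run 2 (9.95%). In BKO and WT run 1 each of these cells had exactly 1 Foxp3 UMI and was deep, with medians of 13614.5 and 12906 UMIs against 6223 and 4407.5 UMIs in Tfh cells without one. The shallowest had 12034 UMIs in BKO and 11978 UMIs in WT run 1. Cells with a Foxp3 UMI below those depths, 1920 in BKO and 1390 in WT run 1, were therefore all Tfr by the choice of depth. At or above those depths, 68.1% of 182 BKO cells and 63.4% of 41 WT run 1 cells with a Foxp3 UMI were Tfr. In WT run 2, 272 of the 365 cells had exactly 1 UMI, the most was 5, and 218 were in Tfh subcluster 1. Within that subcluster Tnfrsf4 stood at 408 CPM in run 2 cells with a Foxp3 UMI (interval 380 to 437) and at 283 CPM in cells without one (268 to 298), with median depths of 7806.5 and 6795 UMIs. In the other Tfh cells it stood at 236 CPM with a Foxp3 UMI and at 98.4 CPM without.

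Between genotypes, no member passed the rule of size in either class. The rule asked for a mean of at least 20 CPM over the 3 samples and for BKO to be at least 1.5 times beyond both WT runs. It called 0.872% of 6539 features higher and 2.26% lower in Tfr, and 0.381% of 6559 features higher and 2.38% lower in Tfh. Foxp3 was under 20 CPM in Tfh and was not measured against the rule there. The other 4 members and, in Tfr, Foxp3 were.

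All 4 receptors in BKO Tfr lay above both WT runs, by less than the rule asked. Tnfrsf4 came nearest, at 808 CPM in BKO against 542 and 488 CPM in the WT runs, 1.49 times run 1 and 1.65 times run 2. Tnfrsf18 stood at 518 CPM in BKO against 371 and 339 CPM, 1.40 and 1.53 times. Tnfrsf9 stood at 341 CPM in BKO against 271 and 259 CPM, and Tnfrsf1b at 202 CPM against 157 and 163 CPM. The intervals of BKO did not overlap those of either WT run for any of the 4. They cover counting error only, and the share of all features without such overlap was not counted. Foxp3, at 349 CPM against 356 and 331 CPM, lay between the runs. The log2 ratios of BKO to the mean of the WT runs were 0.65 for Tnfrsf4, 0.54 for Tnfrsf18, 0.36 for Tnfrsf9, 0.34 for Tnfrsf1b and 0.02 for Foxp3, beside a median of -0.09 over all features measured. The 5 T cell markers had a median log2 ratio of 0.41 in Tfr, with Trac at 0.48 and Cd4 at -0.25, so the Tnfrsf9 and Tnfrsf1b ratios lay under that median. The part of this shift in the receptor ratios was not tested. With TMM scaling, which moved the median over all features to 0.02, Tnfrsf4 (0.76) and Tnfrsf18 (0.66) passed the rule. They also did against WT run 2 alone (0.73 and 0.61). Against WT run 1 alone, the run with the batch label of BKO, neither did (0.57 and 0.48). The share of all features past the rule in these alternatives was not counted.

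The makeup of Tfr differed between genotypes along with these levels. Subcluster 1, the highest in receptors, made up 36.3% of BKO Tfr cells (interval 34.2 to 38.4), against 16.2% in WT run 1 (14.3 to 18.2) and 17.1% in WT run 2 (15.2 to 19.2). Subcluster 0, the lowest in 3 of the receptors, made up 15.4% of BKO Tfr cells against 39.1% and 40.0%. When the subcluster levels of each library were weighted by the WT makeup, a comparison added after the data were seen, the log2 ratios came to 0.21 for Tnfrsf4, 0.21 for Tnfrsf18, -0.03 for Tnfrsf9, -0.05 for Tnfrsf1b and -0.09 for Foxp3. Within subcluster 1 Tnfrsf4 was 1206 CPM in BKO against 897 and 805 CPM in WT (log2 ratio 0.50). Within subcluster 3 it was 772 CPM in BKO against 881 and 783 CPM (-0.11). Tnfrsf18 in Tfr subcluster 4 was the 1 receptor past the size rule within a Tfr subcluster, at 569 CPM in BKO against 314 and 331 CPM. It was named after its value was seen. That subcluster had 119 cells in BKO, 107 in WT run 1 and 101 in WT run 2, and the share of all features past the rule there was not counted. The counting software also differed with genotype, and log2 ratios fell with intron length over all features. With that trend taken off, the Tfr log2 ratios were 0.46 for Tnfrsf4, 0.36 for Tnfrsf18, 0.49 for Tnfrsf9 and 0.47 for Tnfrsf1b.

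In Tfh the receptors did not move as a group, and the makeup of the class differed between genotypes. Subcluster 2 made up 34.1% of BKO Tfh cells against 6.90% in WT run 1 and 7.33% in WT run 2. Subcluster 5 made up 0.172% against 9.63% and 9.90%. Tnfrsf4 stood at 200 CPM in BKO against 170 and 156 CPM in the WT runs (log2 ratio 0.29), and Tnfrsf18 at 168 CPM against 156 and 141 CPM (0.18). Tnfrsf9 stood at 78.1 CPM in BKO against 92.6 and 87.0 CPM (-0.20), and Tnfrsf1b at 45.9 CPM against 60.6 and 58.5 CPM (-0.37), beside a median of -0.10 over all features measured. BKO lay above both WT runs for Tnfrsf4 and Tnfrsf18 and below both for Tnfrsf9 and Tnfrsf1b. With the intron length trend taken off, the 4 ratios were 0.12, -0.00249, -0.07 and -0.24. With the WT makeup they were 0.33, 0.29, 0.02 and -0.20. That weighting includes subcluster 5, which held 11 BKO cells with 1 Tnfrsf1b UMI. In Tfh subcluster 1 BKO lay above both WT runs for all 4 receptors, by log2 ratios of 0.10 for Tnfrsf1b to 0.47 for Tnfrsf4. Tnfrsf9 in Tfh subcluster 2 was past the size rule, at 54.6 CPM in BKO against 85.6 and 90.9 CPM, and was named after its value was seen. Within that subcluster the share of all features past the rule was not counted. Foxp3 in Tfh stood at 1.33 CPM in BKO, over the 0.801 CPM of WT run 1 and under the 16.5 CPM of WT run 2, so its direction changed with the run.

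The rest of the TNF receptor superfamily was mostly low in these cells. Of 22 other family genes, 5 reached the mean level in Tfr and 4 in Tfh, and 0 were called between genotypes, with a median log2 ratio of -0.10 in Tfr and 0.18 in Tfh. Cd27, a costimulatory receptor of T cells, was the highest, at 431 CPM in BKO Tfr against 345 and 334 CPM in WT Tfr, and did not differ by class past the rule. Fas, the death receptor, stood at 71.8 CPM in BKO Tfr against 54.0 and 56.6 CPM in WT Tfr. Tnfrsf8 (CD30) was the 1 family gene outside the members that was higher in Tfr than in Tfh in each sample, with 43.2 CPM in BKO Tfr against 10.7 CPM in BKO Tfh and log2 ratios of 1.96 in BKO, 1.60 in WT run 1 and 1.64 in WT run 2.

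The ligands of OX40, GITR and 4-1BB were at low levels in these cells. Tnfsf4, the OX40 ligand, lay between 0.222 and 1.60 CPM over classes and samples, Tnfsf18, the GITR ligand, between 0 and 0.0655 CPM, and Tnfsf9, the 4-1BB ligand, between 3.01 and 4.45 CPM. Tnf, a ligand of TNFR2, stood at 28.9 CPM in BKO Tfr against 41.4 and 41.3 CPM in WT Tfr. Ltb, the lymphotoxin beta chain, was the highest ligand, at 954 CPM in BKO Tfr against 869 and 792 CPM in WT Tfr. Of 6 ligand genes measured between genotypes in Tfr, 1 was lower and 0 were higher, where 2.26% of all features were lower. The gene was Tnfsf11 (RANKL), at 79.8 CPM in BKO against 147 and 159 CPM in WT, with a list median of -0.45. Tnfsf8, the ligand of CD30, and Cd40lg, the helper ligand that acts on B cells, were lower in Tfr than in Tfh in each sample, with Cd40lg at 50.9 CPM in BKO Tfr against 227 CPM in BKO Tfh.

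Downstream of the receptors, 0 of 10 TRAF and adaptor genes were called between genotypes in either class, with medians of -0.09 in Tfr and -0.18 in Tfh. Traf1, which rises with NF-kappaB activity, was the most abundant with Traf3, at 173 CPM in BKO Tfr against 145 and 145 CPM in WT Tfr, and Traf3 stood at 150 CPM against 198 and 206 CPM. Of 13 NF-kappaB genes, 1 was higher in BKO Tfr and 0 were lower (median 0.00), and 0 were called in Tfh (median -0.03). Over all features 0.872% were called higher in Tfr. The called gene was Nfkbia, the inhibitor that NF-kappaB itself induces, at 436 CPM in BKO Tfr against 267 and 260 CPM in WT Tfr. Nfkb1 stood at 306 CPM in BKO Tfr against 418 and 417 CPM. Nfkb2 and Nfkbia were higher in Tfr than in Tfh in each sample, with log2 ratios of 0.73 and 0.97 in BKO, 0.66 and 0.75 in WT run 1 and 0.59 and 0.80 in WT run 2.

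Of 21 other regulatory T cell genes measured in Tfr between genotypes, 5 were higher and 3 lower in BKO (median log2 ratio 0.04). Over all features the rule called 0.872% higher and 2.26% lower in Tfr, and 0.381% higher and 2.38% lower in Tfh. The 5 were Ctla4, at 615 CPM in BKO against 357 and 355 CPM in WT, Capg, an actin-binding protein (317 against 211 and 184 CPM), Tigit, an inhibitory receptor (77.1 against 44.2 and 48.9 CPM), Prdm1 (Blimp-1), a transcriptional repressor (55.9 against 22.9 and 23.1 CPM), and Lag3, another inhibitory receptor (118 against 49.3 and 47.5 CPM). Those lower were Lrrc32 (GARP), which holds latent TGF-beta on the cell surface (28.0 against 45.0 and 43.6 CPM), Nrp1, a semaphorin receptor (289 against 480 and 484 CPM), and Swap70 (43.9 against 77.7 and 74.7 CPM). Ikzf2 stood at 3032 CPM in BKO Tfr against 3173 and 3234 CPM in WT Tfr, and Izumo1r (folate receptor 4) at 1019 CPM against 834 and 814 CPM. In Tfh 0 of 13 such genes were higher and 2 lower (median -0.01): Ikzf4 (Eos), a partner of Foxp3, at 20.5 CPM in BKO against 32.5 and 31.5 CPM in WT, and Entpd1 (CD39), which breaks down extracellular ATP, at 15.7 CPM against 43.8 and 41.4 CPM. Of 14 transcription factors and cofactors that act with or on Foxp3, 0 were higher and 2 lower in BKO Tfr (median -0.29): Runx1, at 445 CPM against 677 and 677 CPM, and Bach2, a repressor, at 98.7 CPM against 177 and 176 CPM. In Tfh Satb1, a chromatin organiser, was lower, at 24.2 CPM in BKO against 48.4 and 49.9 CPM. Ets1, the most abundant of them, stood at 732 CPM in BKO Tfr against 845 and 871 CPM. All these lists share the genotype differences in counting software and subcluster makeup with the members. Their levels were not weighted by the WT makeup, so the part of makeup in them was not tested.

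The genes whose levels ran most like each member were ranked over subclusters of at least 100 cells, 11 in BKO and 12 in WT run 2, by the smaller of the Pearson r of log2(CPM + 0.5) in each, among 6059 genes. Subclusters share a library and were made from these genes, so r describes likeness only. For Foxp3 they were Il2ra (r 0.91 in BKO and 0.94 in WT run 2), Nrn1 (0.89 and 0.93) and Pnrc1 (0.89 and 0.89). For Tnfrsf18 they were Sdf4 (0.95 and 0.95), Ctla4 (0.95 and 0.94) and Ier5 (0.94 and 0.93). For Tnfrsf4 they were Ier5 (0.97 and 0.97), Capg (0.94 and 0.94) and Sdf4 (0.96 and 0.93). For Tnfrsf9 they were Cd83 (0.93 and 0.91), Ier5 (0.96 and 0.90) and Itm2c (0.91 and 0.89). For Tnfrsf1b they were Cep112 (0.93 and 0.97), Acot9 (0.93 and 0.98) and Mcl1 (0.92 and 0.96), the last an inhibitor of cell death. Between members, Tnfrsf4 and Tnfrsf18, the neighbours on chromosome 4, had an r of 0.97 in BKO and 0.96 in WT run 2, and Tnfrsf9 and Tnfrsf1b the lowest r in WT run 2, 0.76, with 0.91 in BKO.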

How the data were processed

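Raw UMI counts of genes by barcode were deposited for the 3 samples, with the authors' tables of subcluster numbers for Tfh and Tfr cells. Per the file headers, counts came from Cell Ranger 7.0.1 for WT and Cell Ranger 4 for BKO, and mm10 is named in the submitters' processing notes. By default these versions treat intron reads differently; the sources used here do not name the setting used. Which suffix of the tables stands for which run was found from barcodes and UMI totals: the tables' totals equal those of WT run 1 for one suffix. Raw counts were summed per sample, class and subcluster and scaled to CPM, and log2 ratios add 0.5 CPM. The designed count test needs replicates and was not run, since both WT samples are runs of 1 library. The size rule took its place. It was tried on simulated counts that held counting error only, with no spread between mice or libraries and no difference in software. That trial cannot show how the rule performs in place of replicates. Named genes are the members, the members of fixed lists past the size rule (up to 6), the 2 of highest CPM per list and the 3 most similar genes per member. Members and lists were chosen with earlier results of these data known. No doublet caller was run, and the sources used here do not name one. Gene models came from GENCODE vM21, with a model for 32158 of 32285 features (99.6%). The intron length trend is a running median of the log2 ratio. Tools were Python 3.11.15, numpy 2.4.6, scipy 1.17.1, pandas 2.3.3, R 4.3.3, and edgeR 4.0.16 and DESeq2 1.42.0 for alternative scaling.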

Additional observations from a re-analysis of the deposited data

Results flagged for a closer look

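Tnfrsf9 and Tnfrsf1b went in opposite directions in the 2 classes. In Tfr both lay above each WT run in BKO, with log2 ratios of 0.36 for Tnfrsf9 and 0.34 for Tnfrsf1b. In Tfh both lay below each WT run in BKO, with log2 ratios of -0.20 for Tnfrsf9 and -0.37 for Tnfrsf1b. The difference between the classes was not tested, since there is 1 library per genotype. With the WT subcluster makeup the Tnfrsf9 ratios were -0.03 in Tfr and 0.02 in Tfh, with BKO between the WT runs in both classes. The Tnfrsf1b ratios were then -0.05 in Tfr and -0.20 in Tfh, with BKO below both WT runs in both classes. The Tfh value includes subcluster 5, where BKO had 11 cells with 1 Tnfrsf1b UMI. That is 11.3 CPM (interval 0.286 to 62.9), against 66.5 CPM in WT run 1. The part of these few cells in the Tfh ratio was not tested.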

How the results depend on the processing

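The count of members called in Tfr, 0, became 2 (Tnfrsf18 and Tnfrsf4) with TMM factors and with median-of-ratios size factors, and 3 (also Tnfrsf9) with a smaller factor in the size rule. Leaving out WT run 1 or run 2 gave 2 and 0. In Tfh the count, 0, became 1 (Tnfrsf1b) with the smaller factor and was 0 without either WT run. Both counts stayed at 0 with a pseudocount of 2 CPM, no filter on low levels, the intron length trend taken off, Tfh subcluster 1 counted as Tfr, and the WT makeup, which was chosen after seeing the data. All 4 receptors stayed higher in Tfr than in Tfh in the 3 samples under each of 5 alternatives. The share of cells with a UMI of each receptor stayed highest in subcluster 1 among Tfh subclusters, and below that of Tfr, when thinned to 4000 UMIs or not thinned. Of cells Tfr in run 1 and Tfh in run 2, 29.2% had at least 2 Foxp3 UMIs in run 2, and 32.6% had at least 1 when thinned to 2500 UMIs. TMM moved the median log2 ratio of all features in Tfh to 0.06, against -0.10. Of 100 alternative values of the members' genotype ratios, 49 moved beyond counting error. Foxp3 in Tfh ranged between -3.22 (without WT run 1) and 0.49 (without WT run 2). No paired analysis was possible because the WT samples are runs of the same cells. With 1 library per genotype, the spread between mice is unknown, and genotype cannot be told apart from library or counting software.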
